A study of Mus musculus with 21 samples.

Results

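The 94 genes described here encode subunits of the mitochondrial respiratory chain complexes I to IV and of ATP synthase, with a group of their assembly factors. They were chosen by symbol: every probe set that the platform annotation gives a single gene symbol starting with Ndufa, Ndufb, Ndufc, Ndufs, Ndufv, Sdh, Uqcr, Cox4, Cox5, Cox6, Cox7, Cox8 or Atp5. Such probe sets numbered 185 and stood for 94 of the 18193 genes of the array, each gene being represented by its probe set of highest mean signal. Complex I contributed 36 genes, complex II 4, complex III 8, complex IV 17 and ATP synthase 17. The other 12 were assembly factors, which help build complexes I and II but are not part of them and met the rule only because their symbols start with Ndufaf or Sdhaf. Ndufa11, Ndufb4b, Ndufb4c and Ndufs6, found only on probe sets with several symbols, were not analysed here, nor were any of the 13 subunits encoded in mitochondrial DNA.

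The tissue was the presomitic mesoderm (PSM), the strip of mesoderm beside the caudal neural tube that segments into somites, from embryos of the outbred CD-1 mouse. The labels name no mutation and no treatment, so the groups differ only by part number. The samples are labelled as stage E8.5, whereas the protocol speaks of dissection at 9.0 days post coitum. After 1 min in pancreatin at 2 mg/ml, neighbouring tissues such as the neural tube were removed, and each PSM was divided into 7 pieces, numbered part 1 to part 7. There were 3 arrays for each part, labelled as biological replicates 1 to 3, so 21 in all. The labels do not say at which end part 1 lies, nor which replicate numbers stand for which embryo. According to the design text a left and a right PSM came from the same embryo and a further set from another one, so some arrays share an embryo, and the p-values below measure only the spread between arrays.

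Complexes I and II pass electrons from NADH and succinate to ubiquinone, complex III passes them on to cytochrome c, and complex IV hands them to oxygen. Complexes I, III and IV pump protons across the inner mitochondrial membrane, and ATP synthase lets the protons flow back to make ATP. Caudal PSM cells are known for high glycolytic activity, and the balance between glycolysis and respiration along this tissue has been a question in the study of axis elongation.

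Array means lay between 151 and 154 signal units and array medians between 12.9 and 13.7. The part numbers followed the known direction of PSM maturation: all 8 genes of a list marking the tailbud and posterior PSM fell from part 1 to part 7, and all 7 genes of a somite list rose. Blood genes were present in every part. Their summed signal over 8 genes lay between 10794 and 18325 in part 1 and between 6575 and 12370 in part 7, and 5 of the 7 tested fell with part number. The summed signal of 7 neural tube genes lay between 801 and 1246 in part 1 and between 141 and 252 in part 7. Of the 6 tested, 1 fell (Fabp7) and 1 rose (Olig2), and Fabp7 made up most of the sum in part 1. On the log2 scale of the tests below, the mean of Fabp7 was 9.92 in part 1 and 6.57 in part 7. The other tested genes had part 1 means of at most 5.63 (Sox2). Irx3 went from 4.74 to 6.19, and Olig2 was dim, at 4.15 and 4.38. Of the 6 differences between part 7 and part 1, 3 were above and 3 below 0. The summed signal of 8 gut endoderm genes lay between 233 and 408 in part 1 and between 72.0 and 264 in part 7, with 1 of 7 falling (Krt8). The sum of 7 endothelial genes overlapped between these parts, at 31.2 to 385 and 50.6 to 214. That of 10 muscle genes lay between 199 and 425 in part 1 and between 396 and 545 in part 7, with 1 of 3 tested rising (Actc1). The part of any of these in the results on the respiratory chain was not tested. The mean log2 ratio of the 3' to the 5' actin probe set, a measure of how complete the amplified RNA was, ranged from 2.91 in part 1 to 3.91 in part 3. In these bulk samples, fewer cells of a type and less RNA per cell cannot be told apart.

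Of the 94 genes, 89 were tested, the condition being a signal of at least 13.3, the median of the whole table, in at least 3 arrays. The 5 others were Cox4i2, Cox7b2, Cox8b, Ndufa4l2 and Ndufb4, which reached that value in 1, 0, 0, 2 and 0 arrays. Values were analysed as log2(signal + 16), and a slope is the change of this quantity for each step of 1 part. A gene was called where its p-value from limma, adjusted by Benjamini-Hochberg over all 12143 genes tested, was under 0.05.

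The promoters of these genes are known for binding sites of NRF1, of ETS factors such as GABP, and of YY1. RefSeq promoter windows of build GRCm38.p6, from 250 bases before to 50 after the annotated start, were matched for 78 of the 94 genes. These 4 windows are shown because they belong to genes whose slopes were called and each carries an exact copy of the letters searched, which is printed in capitals. Atp5c1, Ndufb1 and Uqcrfs1 also had called slopes, but their windows held none of the letters searched. The first 3 windows shown are the 250 bases before the start, and for Ndufc1 30 bases after it are given.
Ndufaf4, chr4:24897833-24898082, plus strand: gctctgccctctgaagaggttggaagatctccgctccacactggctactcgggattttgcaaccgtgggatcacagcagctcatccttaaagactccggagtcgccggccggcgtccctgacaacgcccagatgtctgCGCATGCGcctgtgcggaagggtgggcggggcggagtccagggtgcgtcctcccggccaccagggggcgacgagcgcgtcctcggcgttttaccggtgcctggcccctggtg
Uqcrh, chr4:116075071-116075320, minus strand: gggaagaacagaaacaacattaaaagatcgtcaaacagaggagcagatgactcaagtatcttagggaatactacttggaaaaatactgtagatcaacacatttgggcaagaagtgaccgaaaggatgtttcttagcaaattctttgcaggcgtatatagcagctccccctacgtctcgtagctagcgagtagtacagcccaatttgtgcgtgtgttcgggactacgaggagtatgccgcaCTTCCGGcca
Cox6b1, chr7:30626115-30626364, minus strand: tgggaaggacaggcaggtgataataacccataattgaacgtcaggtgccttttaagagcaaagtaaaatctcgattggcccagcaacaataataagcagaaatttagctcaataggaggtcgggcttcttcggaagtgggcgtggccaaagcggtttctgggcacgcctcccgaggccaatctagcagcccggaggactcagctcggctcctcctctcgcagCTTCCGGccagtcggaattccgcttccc
Ndufc1, chr3:51408915-51408944, minus strand: gcctgcggaacAAGATGGCgccgtccgtag
The capitals in Ndufaf4 are the core of the NRF1 motif, CGCATGCG, 112 bases before the start. In Uqcrh and Cox6b1 they are the ETS motif CCGGAAG read on the other strand, 10 and 28 bases before the start. In Ndufc1 they are the YY1 motif AAGATGGC, 22 bases after the start.

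Searched on both strands with no mismatch, the NRF1 core was present in 10 of the 78 windows (12.8%), against 4.29% of the windows of all tested genes. Its letters were shortened from a longer form of the motif after the matches of that form had been seen. The excess is therefore a description and no test. The 10 genes were Atp5g2, Atp5j, Atp5k, Atp5l, Ndufaf4, Ndufaf5, Ndufa8, Uqcr11, Uqcrc1 and Cox6a1. The ETS motif was present in 22 windows (28.2%, against 19.9%) and the YY1 motif in 10 (12.8%, against 5.21%). The letters TATAAA were found in 9 windows (11.5%, against 8.73%). Over all 27025 windows of the RefSeq table the 4 shares were 2.07%, 9.93%, 3.19% and 15.7%. The median GC content was 59.0% in the windows of these genes and 61.3% in those of tested genes. The median slope over part number was -0.027 for the 10 genes with the NRF1 core and -0.0095 for the 65 tested genes without it. With and without the ETS motif it was -0.017 and -0.0095, and with and without TATAAA -0.019 and -0.010. For the YY1 motif the order was the other way, at -0.00049 with it and -0.012 without. These differences were not tested. These letters describe the windows and say nothing of binding.

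The first comparison asked whether the transcripts of the respiratory chain change along the PSM. Most did not pass the test: 7 of 89 slopes were called (7.87%), while 19.2% of all tested genes were called. There were 5 that fell with part number, namely Ndufaf4, Uqcrh, Ndufc1, Atp5c1 and Cox6b1 (11.1% of all genes fell), and 2 rose, namely Uqcrfs1 and Ndufb1 (8.09% of all genes rose). The share of called genes was thus below that of the array as a whole. When a term for the replicate number was added to the fit, 20 of the 89 were called (22.5%, against 25.1% of all genes), of which 7 rose (11.3% of all genes) and 13 fell (13.8%). Without that term the count was 4 without replicate 1 (11.3% of all genes) and 2 without replicate 2 (12.1%). Leaving out a single array gave 4 without part 1 replicate 1 (16.2%) or part 7 replicate 3 (18.9%), and 10 without part 7 replicate 1 (17.7%).

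The slopes themselves were small. Over the 89 genes they ran from -0.09 for Ndufaf4 to 0.09 for Ndufb1, with 34 above and 55 below 0. Their median was -0.0095, beside -0.0013 over all tested genes, and the median absolute slope was 0.023, beside 0.034. Within a single replicate number the median was 0.0040 in replicate 1, -0.013 in replicate 2 and -0.0099 in replicate 3, with 43, 54 and 56 of the 89 slopes below 0. By complex the median was -0.0029 in complex I, -0.024 in complex II, 0.016 in complex III, -0.0015 in complex IV, -0.023 in ATP synthase and -0.022 among the assembly factors. In ATP synthase 13 of 17 slopes were below 0, and in complex III 3 of 8.

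**Figure D1:**
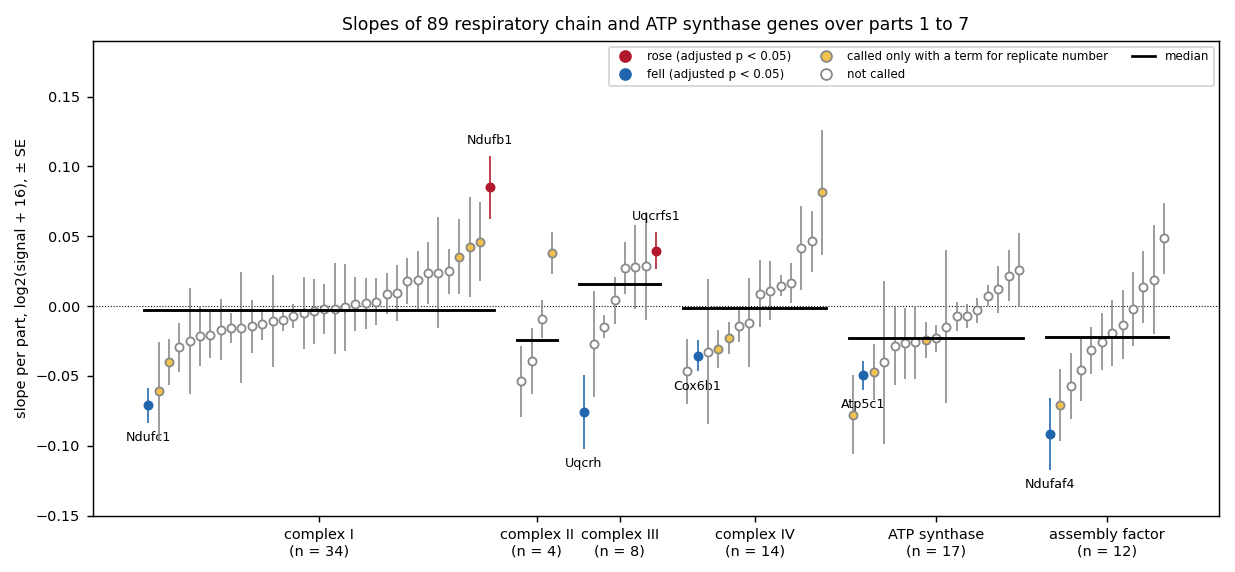
Slope over PSM part number, in log2(signal + 16) per part with its standard error, of each of the 89 tested genes, sorted within its complex, with black bars at the medians. The 5 genes that fell are blue and 2 that rose are red, yellow marks slopes called only with a term for the replicate number, and most points lie within 0.05 of 0.

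Complex I, the NADH dehydrogenase, had 2 called slopes among 34 tested genes (5.88%, against 19.2% of all genes). Ndufc1, a small accessory subunit of its membrane arm, gave the clearest fall. Its signal in replicate 1 was 2044, 2095, 1734, 1584, 1416, 1376 and 1540.3 from part 1 to part 7. Replicate 2 gave 1853, 1669.7, 1692, 1676, 1396, 1478 and 1488. Replicate 3 gave 2046, 1875, 1892, 1806, 1617, 1627 and 1596. In each replicate the values of parts 5 to 7 were below those of parts 1 and 2, and all arrays of part 1 were above all arrays of part 7. The slope was -0.07 ± 0.01 (SE, n = 21 arrays, adjusted p = 0.000222 in limma), and part 7 differed from part 1 by -0.36 ± 0.09 (SE; adjusted p = 0.0151). Ndufc1 was also the only one of the 89 genes that passed the F test over the 7 parts (adjusted p = 0.0124), which 13.4% of all genes passed. With the replicate term 9 of the 89 passed it, against 25% of all genes. Part 7 against part 1 missed the threshold without the part 1 array of replicate 1 (adjusted p = 0.0571) or 3 (0.0521), the part 7 array of replicate 2 (0.0507), or all of replicate 1 (0.162) or 2 (0.113), while the slope kept its call in each of these. A second, dimmer probe set of Ndufc1 had a slope of -0.03 (adjusted p = 0.644 with every probe set tested alone), and with the mean of both the slope was -0.05 (adjusted p = 0.0509).

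Ndufb1, another accessory subunit of complex I, had the largest positive slope, 0.09 ± 0.02 (SE, adjusted p = 0.00879). Its signal was 32.6, 18.2, 30.4, 29.3, 20.8, 32.2 and 29.9 over parts 1 to 7 in replicate 1. Replicate 2 read 18.5, 21.5, 21.3, 33.9, 26.3, 34.1 and 47. Replicate 3 read 20.8, 18.5, 31.8, 23.9, 37.7, 35.8 and 39.6. Part 1 was the lowest in replicate 2 and part 2 in replicate 3, whereas in replicate 1 part 1 was the highest of the 7. All these signals lie close to the filter of 13.3. Without replicate 2 the adjusted p was 0.198, without replicate 3 it was 0.123, and without part 7 it was 0.0777.

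The remaining complex I genes did not pass without a replicate term. With it, Ndufa3 (slope -0.06, adjusted p = 0.0159) and Ndufa4 (-0.04, 0.0347) fell. Ndufa4, first described as a complex I subunit, is now placed in complex IV. Ndufs7 (0.05, adjusted p = 0.0292) and Ndufab1 (0.04, 0.0412) rose with that term, as did Ndufb6 (0.04, 0.0236). Ndufs7 carries an iron-sulfur cluster near the ubiquinone site, and Ndufab1 is the mitochondrial acyl carrier protein. Ndufs8 was higher in part 7 than in part 1 with the term (0.30, adjusted p = 0.0398), and Ndufb3 was lower (-0.32, 0.0269). Ndufa2 passed the F test with the term (adjusted p = 0.0497), with a slope of 0.0033 that was not called (0.926 without the term). Ndufa1, a small membrane subunit, was not called either (-0.0070, adjusted p = 0.641).

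Complex II, the succinate dehydrogenase, had no called slope among its 4 subunits in the fit without the replicate term (against 19.2% of all genes). The 4 did not share a direction. The flavoprotein gene Sdha was nearly level, at -0.01 ± 0.01 (SE, adjusted p = 0.689). Its replicate 1 values were 1119, 1089, 1094, 1041, 1084, 1126 and 949.6. Those of replicate 2 were 1132, 1123, 1125, 1119, 1107, 1210.2 and 992.9. Those of replicate 3 were 1227, 1189, 1285, 1208, 1086, 1278 and 1292. Part 7 was the lowest part in replicates 1 and 2 and the highest in replicate 3. The iron-sulfur subunit gene Sdhb had a slope of 0.04 ± 0.02 (SE, adjusted p = 0.0789), and it was called as rising with the replicate term (adjusted p = 0.017). The membrane anchor genes Sdhc and Sdhd were not called, with a slope of -0.04 for the first (adjusted p = 0.268) and -0.05 for the second (0.147), and Sdhd was lower in part 7 than in part 1 with the replicate term (-0.45, adjusted p = 0.0377).

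Complex III, the cytochrome bc1 complex, held a gene that fell and one that rose (2 of 8, 25%, against 19.2% of all genes). Uqcrh, the hinge protein that helps bind cytochrome c1, had the largest difference between the ends of the PSM among the 89 genes. Replicate 1 of Uqcrh read 645.8, 343.2, 330.4, 289.3, 291.2, 306.1 and 373.6 over parts 1 to 7. Its replicate 2 read 407.1, 332.7, 269.3, 375.0, 379.2, 316.1 and 304.5. Its replicate 3 read 450.5, 309.8, 300.6, 306.9, 277.5, 278.7 and 258.5. Part 1 held the highest value of each replicate, and the 645.8 of replicate 1 stood apart from all other arrays. The values of parts 2 to 7 overlapped. Part 7 differed from part 1 by -0.64 ± 0.17 (SE, 3 arrays each, adjusted p = 0.014), with a 95% interval of -0.997 to -0.29, and the slope was -0.08 ± 0.03 (SE, adjusted p = 0.047). Without the part 1 array of replicate 1 the difference was -0.45 (adjusted p = 0.0985) and the slope -0.05 (0.171), and without all of part 1 the slope was -0.01 (0.812). The slope also lost its call without replicate 1, 2 or 3 (adjusted p = 0.135, 0.0747 and 0.222), and without the array of part 1 replicate 2 (0.0845), part 1 replicate 3 (0.109), part 7 replicate 2 (0.0564) or part 7 replicate 3 (0.0881). The difference of Uqcrh between the ends was lost without the last of these (0.0764) and without replicate 1, 2 or 3 (0.0979, 0.054 and 0.0989).

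Uqcrfs1, the Rieske iron-sulfur protein of complex III, rose with a slope of 0.04 ± 0.01 (SE, adjusted p = 0.0392). In replicate 1 its signal was 1261, 1387, 1396, 1363, 1238, 1447 and 1352. In replicate 2 it was 1274, 1379, 1198, 1475, 1443, 1571 and 1508. In replicate 3 it was 1375, 1318, 1464, 1472, 1698, 1698 and 1657. The rise was plainest in replicate 3, where parts 5 to 7 were above all others, and in replicate 1 the parts overlapped. The call was lost without replicate 2 (adjusted p = 0.236) and without replicate 3 (0.202). It was also lost without part 1 (0.179) or part 7 (0.0541). Leaving out single arrays ended it for part 1 replicates 1 and 2 (0.081 and 0.0762) and part 7 replicates 2 and 3 (0.0537 and 0.0869), while the slope stayed above 0 in each of these fits. Uqcrb, which binds ubiquinone together with other subunits of the complex, was lower in part 7 with the replicate term (-0.14, adjusted p = 0.0261), and Uqcr10 and Uqcrc1 both had a slope of 0.03 and were not called (0.669 and 0.576).

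Complex IV, cytochrome c oxidase, had 1 called slope among 14 tested genes (7.14%, against 19.2% of all genes). Cox6b1 encodes a subunit on the intermembrane side that links the monomers of the enzyme. Its signal was 3706, 3653, 3601, 2973, 3312, 3063 and 3277 in replicate 1. In replicate 2 the values were 3446, 3392, 3364, 3418, 3039, 3166 and 3128. In replicate 3 they were 3208, 3129, 3180.4, 3132, 2735, 2759 and 2863. Parts 5 to 7 were below parts 1 to 3 in every replicate, by a small margin, and replicate 3 lay lowest in most parts. The slope of Cox6b1 was -0.04 ± 0.01 (SE, adjusted p = 0.0261), and part 7 against part 1 was not called (-0.16 ± 0.09, SE, adjusted p = 0.269). Without replicate 1 or 2 the slope had adjusted p = 0.115 and 0.111, and without the part 1 array of replicate 1 it was 0.074. It was 0.0544 without the part 7 array of replicate 3 and 0.108 without part 1. The call of Cox6b1 was also lost with median centring (0.064), no variance trend (0.0806) or the mean of its probe sets (0.0913). Cox7a2 (slope -0.03, adjusted p = 0.0351) and Cox4i1 (-0.02, 0.0475) were called as falling with the replicate term, and Cox7c (0.08, 0.0485) as rising. A second probe set of Cox7c, dim at a mean signal of 22.0, rose without that term (slope 0.08, adjusted p = 0.0419 with every probe set tested alone).

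Several complex IV subunits have a ubiquitous form and a form restricted to muscle, testis or other tissues. Of the 8 restricted forms listed, Cox4i2, Cox7b2, Cox8b and Ndufa4l2 were too dim to test. Cox6a2, the form of heart and skeletal muscle, lay between 5.76 and 28.8 signal units over the 21 arrays, and Cox7a1, also a muscle form, between 2.56 and 23.0. Cox6b2, a testis form, lay between 4.48 and 18.9. Cox8c, another testis form, was above 13.3 in every array, between 26.9 and 59.6. None of the 4 was called (slopes of 0.04, -0.01, -0.05 and 0.05 for Cox6a2, Cox7a1, Cox6b2 and Cox8c, smallest adjusted p = 0.146). Of the ubiquitous forms Cox4i1, Cox6a1, Cox6b1, Cox7a2, Cox8a and Ndufa4, only Cox6b1 was called without the replicate term, and with it Cox4i1, Cox7a2 and Ndufa4 were too, all falling, while Cox6a1 and Cox8a were not (adjusted p = 0.339 and 0.388).

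ATP synthase had 1 called slope among 17 genes (5.88%, against 19.2% of all genes). Atp5c1 encodes the gamma subunit, the central shaft that turns inside the catalytic head. Its signal in replicate 1 ran 3899, 3324, 3306, 3078, 2826, 2859 and 3169. Replicate 2 ran 3431, 3444, 3134, 3362, 3249, 3168 and 2981. Replicate 3 ran 3949, 3727, 3711, 3508, 3180.5, 3227 and 3000.0. All arrays of part 1 were above all arrays of part 7, and in replicate 3 the signal fell at all steps but that from part 5 to part 6. The slope was -0.05 ± 0.01 (SE, adjusted p = 0.00108), and the difference between part 7 and part 1 was -0.30 ± 0.08 (SE, adjusted p = 0.0215). That difference lost its call without the part 1 array of replicate 1 (adjusted p = 0.0821) or 3 (0.0812) and without the part 7 array of replicate 2 (0.0616) or 3 (0.0625). It was also lost without replicate 1, 2 or 3 (0.143, 0.103 and 0.0949). The slope of Atp5c1 kept its call in each of those. A much dimmer second probe set of the gene was level (slope 0.01, adjusted p = 0.911 with every probe set tested alone), and the mean of both gave -0.02 (0.551).

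Atp5g2, one of several genes for the c subunit of the membrane ring, had the steepest slope of ATP synthase, -0.08 ± 0.03 (SE, adjusted p = 0.056), and was called with the replicate term (0.0137). Replicate 1 of Atp5g2 gave 411.2, 316.2, 265.1, 223.5, 234.9, 239.4 and 335.6. Its replicate 2 gave 323.6, 295.4, 242.9, 311.0, 197.3, 252.3 and 229.9. Its replicate 3 gave 294.5, 243.5, 190.7, 200.4, 200.3, 185.0 and 179.7. Part 1 was the highest part in every replicate. Atp5g3, which encodes the same c subunit, differed by -0.19 between part 7 and part 1 and was called with the replicate term (adjusted p = 0.0326). Atp5mpl (slope -0.05, adjusted p = 0.036) and Atp5j2 (-0.02, 0.0262), both small membrane subunits, were called as falling with that term. Atp5d, the delta subunit of the central stalk, was higher in part 7 with it (0.25, adjusted p = 0.0386), and Atp5l, a small membrane subunit, had a slope of -0.03 (0.53 without the term).

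Among the 12 assembly factors, Ndufaf4 had the steepest fall of all 89 genes. It acts early in the assembly of complex I. Replicate 1 of Ndufaf4 gave 643.5, 713.8, 590.2, 546.4, 460.5, 549.7 and 460.0 over parts 1 to 7. Its replicate 2 gave 735.6, 695.8, 683.2, 683.2, 479.9, 504.5 and 483.3. Its replicate 3 gave 917.9, 810.2, 903.6, 839.4, 691.6, 714.7 and 677.5. In every replicate parts 5 to 7 were below part 1, and replicate 3 was the highest of the 3 in every part. The slope was -0.09 ± 0.03 (SE, adjusted p = 0.0128), or 3.24e-05 with the replicate term. A second probe set of Ndufaf4 also fell (slope -0.13, adjusted p = 0.000201 with every probe set tested alone). Part 7 against part 1 was -0.50 ± 0.20 (SE, adjusted p = 0.118), and 0.000656 with the term. The slope missed the threshold without replicate 1 (adjusted p = 0.0534), replicate 2 (0.149) or part 7 (0.0505). Ndufaf6 (slope -0.07, adjusted p = 0.0565) was called only with the replicate term (0.0147), and Ndufaf7 (-0.06), Sdhaf2 (0.05) and Ndufaf3 (-0.0021) were not called in either fit.

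**Figure D2:**
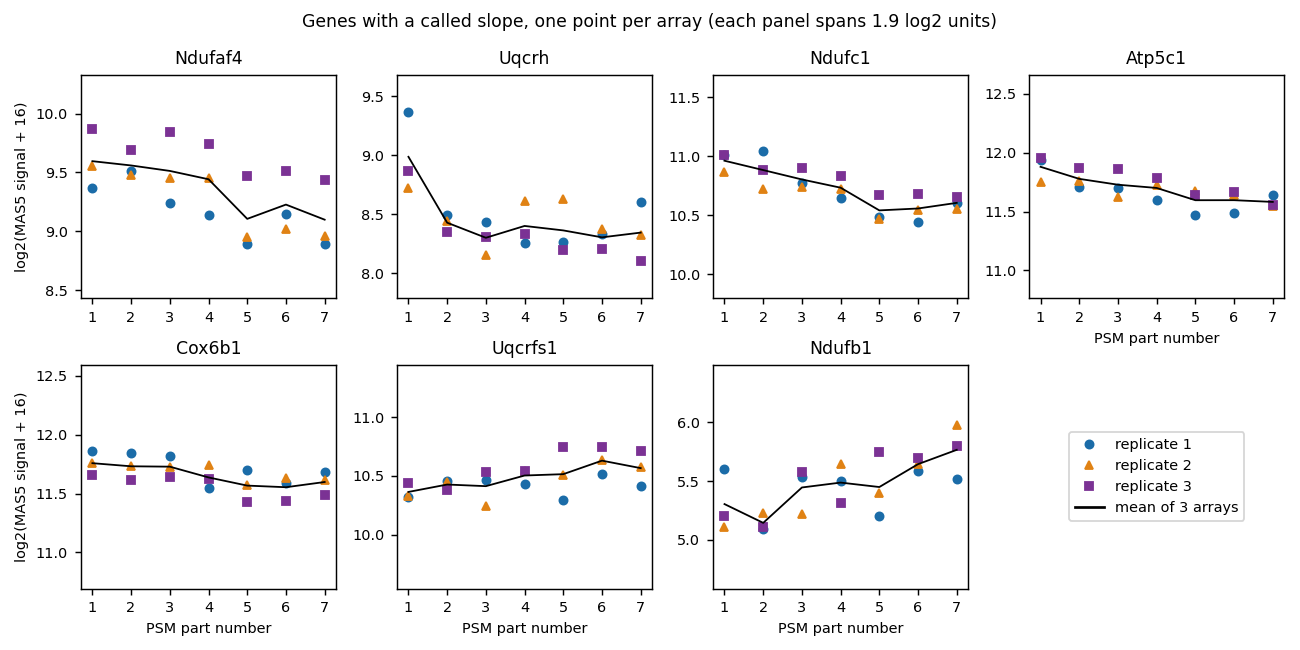
Log2(signal + 16) of the 7 genes with a called slope in each of the 21 arrays against PSM part number, with a symbol for each replicate and a line through the means of 3 arrays. All panels span the same height in log2 units, and the fall of Ndufc1 and Atp5c1 is small beside that height, while Uqcrh drops between part 1 and part 2.

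The ends of the PSM were compared directly as part 7 against part 1. Of the 89 genes 3 were called (3.37%), Uqcrh, Ndufc1 and Atp5c1, all lower in part 7, while 13.4% of all genes were called (6.1% higher and 7.3% lower). The count was 0 without replicate 1 (7 at an unadjusted p under 0.05 in limma, and 5.8% of all genes called) or replicate 2 (6, and 6.18%). It was 1 without part 1 replicate 1 (10.2%) or 3 (11.9%) or part 7 replicate 2 (12.6%) or 3 (10.9%). With the replicate term 18 were called (20.2%, against 23.6%), of which 5 were higher (11.3% of all genes) and 13 lower (12.3%) in part 7. The differences ran from -0.64 (Uqcrh) to 0.55 (Cox7c, adjusted p = 0.338), and the median absolute difference was 0.17, beside 0.24 over all genes. For 84 of the 89 genes the 95% interval of the difference lay inside ±1 log2 unit, and for 39 it lay inside ±0.5. The interval reached 0.35 to either side of the difference in the median gene.

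The middle of the PSM, parts 3 to 5, was set against parts 1, 2, 6 and 7. None of the 89 genes was called in limma (2.92% of all genes were), with 2 at an unadjusted p under 0.05. With the replicate term none was called either (5.95% of all genes), with 10 at an unadjusted p under 0.05. The differences lay between -0.24 and 0.14.

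More of the variation lay between replicates than between parts. The share of each gene's sum of squares that lay between replicate numbers was 40.7% in the median of the 89 genes, and 26.0% lay between parts. These shares were not corrected for the number of groups. There are more parts than replicate numbers, so with no effect of either the parts would on average take the larger share. Over all tested genes the order was the other way, with 17.5% between replicate numbers and 37.1% between parts. A larger share between parts is thus the order to be had by default and alone shows no effect of part. The replicate share was the larger one in 55 of the 89 genes (61.8%), against 30.7% of all genes. It was highest in complex I (median 53.8%, against 19.97% between parts), whereas in complex II it was 32.0%, against 36.4% between parts.

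**Figure D3:**
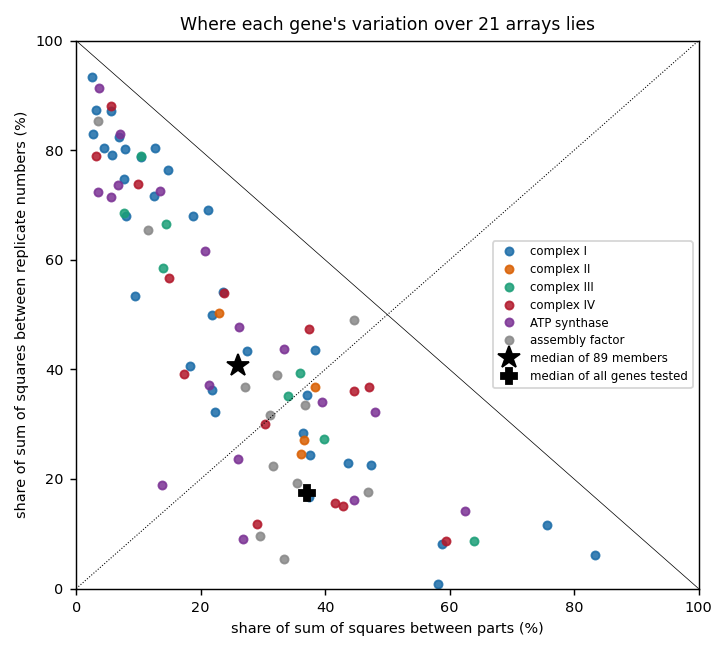
Share of each gene's sum of squares over 21 arrays that lies between replicate numbers, in percent, against the share that lies between parts, in percent, with a point for each of the 89 genes coloured by complex, a star at their median and a cross at the median of all genes tested. Points above the dotted diagonal vary more between replicates than between parts, which holds for 55 of the 89 genes. The diagonal takes no account of there being more parts than replicate numbers.

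Replicate 3 was the low one. A limma test of the replicate number at a given part, added after these values had been seen, called 57 of the 89 genes (64.04%), while it called 33.3% of all genes. Arrays of one replicate number may be pieces of one PSM, so the p-values of this test do not measure the spread between embryos. In 54 of the 57 replicate 3 was the lowest. The exceptions were Sdha and Ndufaf4, in which it was the highest, and Cox7c, in which replicate 1 was the lowest. Of the 4045 genes called over the whole array, replicate 3 was the lowest in 1861 and the highest in 2041. Over all 89 genes replicate 3 was lowest in 70 (78.7%), against 44.1% of all tested genes. In 22 of the 89 every array of replicate 3 lay below all 14 other arrays, which 1.98% of all genes did.

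The difference was shared by many genes. The median difference of replicate 3 from replicate 1 was -0.24 log2 units and from replicate 2 -0.17, while replicates 1 and 2 differed by -0.063 (2 minus 1). Over all genes these medians were -0.017, -0.0098 and -0.0062, where the scaling of the arrays to nearly equal means leaves little room for a shared shift. The mean deviation of the 89 genes from their own means was 0.11 ± 0.064 in replicate 1 (SD over 7 arrays), 0.051 ± 0.063 in replicate 2 and -0.16 ± 0.031 in replicate 3. Each of the 7 arrays of replicate 3 was lower than every array of the others, the highest being -0.10 against a lowest of -0.074. When replicate 3 was left out, the test of the remaining pair called 0 of the 89 genes in limma, with 9 at an unadjusted p under 0.05. It called only 4 of all 12143 genes (0.0329%), so this 0 is no property of the 89. Without replicate 1 the test called 45 of the 89 (31.1% of all genes) and without replicate 2 it called 60 (31.4%).

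By complex, the replicate test called 23 of 34 genes of complex I, 6 of 8 of complex III, 9 of 14 of complex IV, 11 of 17 of ATP synthase, 2 of 4 of complex II and 6 of 12 assembly factors. In the same order these shares were 67.6%, 75%, 64.3%, 64.7%, 50% and 50%, against 33.3% of all genes. The largest difference was that of Atp5e, the epsilon subunit of ATP synthase. Its signal was 372.7, 353.7, 372.5, 338.8, 306.2, 339.3 and 399.1 in replicate 1, from part 1 to part 7. In replicate 2 it was 308.6, 319.5, 315.0, 400.0, 219.0, 342.4 and 289.5. In replicate 3 it was 172.4, 139.3, 154.1, 151.2, 149.5, 147.4 and 145.3. Each array of replicate 3 lay below all others, and within replicate 3 the 7 parts lay between 139.3 and 172.4. Replicate 3 minus replicate 1 was -1.15 (adjusted p = 2.26e-08).

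Ndufb10, an accessory subunit of complex I, showed the same order. It read 658.0, 782.8, 923.9, 715.7, 902.8, 858.8 and 961.4 in replicate 1. It read 650.6, 806.7, 942.9, 724.0, 551.8, 767.5 and 732.1 in replicate 2. It read 468.8, 455.6, 440.3, 451.8, 459.2, 482.0 and 511.1 in replicate 3. Replicate 3 was again below all other arrays, with a difference from replicate 1 of -0.80 (adjusted p = 2.48e-06). Other large differences of replicate 3 from replicate 1 were those of Atp5md (-1.06), Cox8a (-0.88), Ndufb2 (-0.74) and the assembly factor Ndufaf2 (-0.71). In the opposite direction Ndufaf4 was higher by 0.48 and Sdha by 0.19 in replicate 3.

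**Figure D4:**
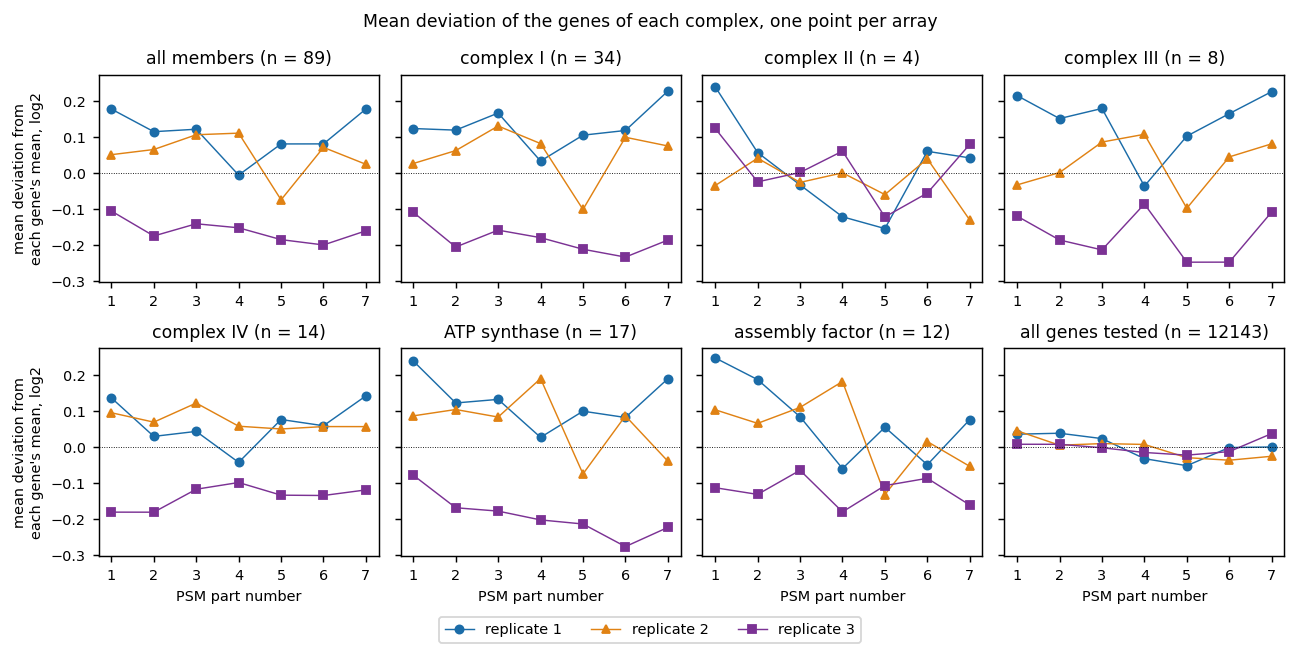
Mean deviation of the genes of each complex from each gene's own mean, in log2 units, for each of the 21 arrays against PSM part number, with a line for each replicate. Replicate 3 lies below the others in every part for all 89 genes together, and the lines cross in complex II. Over all 12143 tested genes they lie on top of each other, which the scaling of the arrays to nearly equal means in part brings about.

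Some other measures also differed between the replicates, and their part in the result was not tested. The mean log2 ratio of 3' to 5' probe sets was 3.88, 3.66 and 3.22 in replicates 1, 2 and 3 for actin, and 3.66, 3.66 and 3.02 for Gapdh. The summed signal of 7 endothelial genes had means of 210, 98.9 and 378, with ranges of 118 to 363, 25.8 to 302 and 31.7 to 793, and all 6 of these genes that were tested differed, highest in replicate 3. The summed signal of 8 gut endoderm genes had means of 152, 141 and 276, and 6 of the 7 tested differed. The summed signal of 8 blood genes had means of 11909, 10940 and 12197. Its ranges of 7503 to 18325, 7538 to 12422 and 6575 to 15068 overlapped, and 0 of the 7 tested genes were called. Over all genes the replicate test called 33.3%.

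The genes of other mitochondrial processes were looked at in the same way. Among all tested genes 19.2% of slopes were called, 25.1% with the replicate term, and the replicate test called 33.3%. Of 76 genes of the mitochondrial ribosome 5 rose and 2 fell with part number, with a median slope of 0.016 and 56 slopes above 0. With the replicate term 13 rose and 3 fell. Mrpl42 (-0.09, adjusted p = 0.00189) and Mrpl23 (-0.07, 0.00371) fell, and Mrpl15, Mrpl43, Mrpl58, Mrps30 and Mrps35 rose by 0.04 to 0.09. Mrpl28 had a slope of 0.09 that was called only with the replicate term (adjusted p = 0.159 without and 0.0029 with it). The replicate test called 41 of the 76, of which 37 were lowest in replicate 3. Of 18 genes of the TCA cycle and pyruvate entry, 2 fell: pyruvate carboxylase, Pcx (-0.15, adjusted p = 0.000942), and the isocitrate dehydrogenase subunit Idh3a (-0.05, 0.0409). With the replicate term 2 more were called, both rising: Pdhx (slope 0.12, adjusted p = 0.0967 without and 0.04999 with it) and Dlst (0.04, 0.0887 and 0.0184). The replicate test called 8 of the 18, with 4 lowest and 4 highest in replicate 3.

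Among 15 further subunits and electron carriers outside the symbol rule, 1 rose and 2 fell (20% called, against 19.2% of all genes). Etfa and Etfb, the subunits of the flavoprotein that feeds electrons from fatty acid oxidation into the chain, fell by 0.18 and 0.06 log2 units per part (adjusted p = 5.83e-05 and 0.0214). Cyc1, the cytochrome c1 subunit of complex III, rose by 0.04 (0.00107). Of 29 assembly factors outside the rule only Atpaf1, an assembly factor of ATP synthase, was called without the replicate term (-0.10, adjusted p = 0.00192), and Atpaf2 was not (-0.05, 0.1). The share called was 3.45%, against 19.2% of all genes. With the term Cox19 and Lrpprc were called as rising too (0.0321 and 0.0448), which made the share 10.3%, against 25.1% of all genes.

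Of 18 regulators of mitochondrial biogenesis 3 rose and none fell (16.7% called, against 19.2% of all genes), and the median slope was -0.0060. The coactivator gene Ppargc1a rose by 0.36 ± 0.04 per part (SE, adjusted p = 4.52e-07), and Twnk, the mitochondrial DNA helicase, by 0.07 ± 0.02 (0.0426). The coactivator gene Pprc1 rose by 0.06 (adjusted p = 0.028). Of 18 glycolysis genes 2 rose and 2 fell (22.2% called, against 19.2% of all genes). The glucose transporter gene Slc2a3 fell by 0.41 ± 0.07 per part (SE, adjusted p = 0.000244), and Aldoc, an aldolase, rose by 0.30 ± 0.03 (4.81e-08). Lactate dehydrogenase, Ldha, fell by 0.04 (0.0279), and the lactate transporter gene Slc16a3 rose by 0.10 (0.0388). With the replicate term 3 rose and 4 fell (38.9% called, against 25.1% of all genes). The added genes were Hk2 (0.05, adjusted p = 0.0121), Ldhb (-0.10, 0.000817) and Slc16a1 (-0.17, 0.0423). The slopes of Ppargc1a, Slc2a3 and Aldoc were each larger in size than that of any of the 89 respiratory chain genes. They were named for being the largest of their lists, so this is a description and no test. The median absolute slope was 0.031 for the regulators and 0.038 for the glycolysis genes, beside 0.034 over all genes and 0.023 for the 89. Ppargc1a was dim in part 1, with a mean log2(signal + 16) of 4.47, against 6.24 in part 7.

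The genes whose profile over the 21 arrays was most like the mean of the 89 were Uqcc2, Smdt1, Tmem256, Mrpl49 and Dnajc15, with Pearson correlations of 0.96, 0.95, 0.94, 0.94 and 0.94. Among the 89 themselves the correlation with that mean ran from 0.97 for Atp5e to -0.62 for Sdha, with Uqcrfs1 at -0.57 and Ndufaf4 at -0.51. All these correlations share the arrays and, through the mean, the low values of replicate 3.

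More than one probe set was present for many of the genes. The 89 tested genes had 180 probe sets, of which 167 could be tested alone, and 7 of these were called, 2 rising and 5 falling, in 6 genes, beside 14.8% of the 22064 probe sets tested in that way. In 20 of the 94 genes the probe set used has a name ending in _s_at or _x_at, which Affymetrix gives to probe sets that may detect related transcripts. Uqcrh and Atp5c1 are among them, so that near-identical copies may share their signal.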

How the data were processed

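Total RNA of dissected PSM pieces, extracted with Trizol and amplified in 2 cycles per the labels' protocols, was hybridised to Affymetrix mouse arrays. The authors deposited a linear signal intensity for each probe set, computed with MAS5 per the submitters' processing notes (version and target of the scaling: not stated in the labels). Because the scaling equalises array means, a shift of most genes at once would not show, and low signals are noisy.

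Parts and replicate numbers were taken from the sample titles. Of 45101 probe sets, 64 controls, 9160 without a symbol and 932 with several were left out, and 34945 with 1 symbol were used. Symbols came from the platform annotation. The members and lists were chosen with earlier results of these data known. No arrays were identical.

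Log2(signal + 16) of the probe set of highest mean was tested with limma 3.58.1 in R 4.3.3 (lmFit and eBayes with a variance trend) over all 21 arrays: a slope in part number, and a fit of 7 parts for the contrasts and the F test. Each was repeated with the replicate number as a term. The code was tested on simulated data. The NRF1 letters searched were shortened from a longer form of the motif after its matches had been seen. Intervals are at 95%. Named were members called in any test, the 3 largest slopes of each complex, all tissue-restricted and ubiquitous isoforms, the members of highest and lowest mean signal of each complex, the 2 largest slopes of each other list, and the 5 genes most like the members' mean. Further called genes of the other lists, and members with large differences between replicates, were named after their values were seen. Alternatives were other pseudocounts, filters, normalizations and probe set rules, no variance trend, array weights, replicate blocks, and leaving out replicates, parts or single arrays.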

Additional observations from a re-analysis of the deposited data

How the results depend on the processing

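Against 7 called slopes in the fit described, 4 were called with no variance trend (18.9% of all genes), 20 with the replicate block as a fixed term (25.1%), 11 with a random block (23.6%), 20 with the block and quantile normalization (25.1%), and 17 with the block and median centring (26.5%). Leaving out a replicate number gave 2 to 6 (11.3% to 15.4% of all genes) and leaving out a single array of part 1 or 7 gave 4 to 10 (16.2% to 18.9%). Median centring alone gave 3 that rose and 3 that fell, in place of 2 and 5. For part 7 against part 1, in place of 3, the replicate block gave 18 (23.6% of all genes), the random block 11 (21.8%) and the fit on only the arrays of parts 1 and 7 gave 0 (8.86%), with 9 at an unadjusted p under 0.05. Leaving out a replicate gave 0 to 4 and leaving out a single array 1 to 4. For the F test, in place of 1, the replicate block gave 9 (25% of all genes), the random block 6 (22.4%), and no variance trend and averaged probe sets gave 0 (13.3% and 13.7%), with 4 and 6 at an unadjusted p under 0.05 in limma. Leaving out a replicate gave 0 to 2. The replicate test called 0 to 60 of the genes when a replicate was left out, 0 being without replicate 3. Over all genes the shares were 31.1%, 31.4% and 0.0329% without replicates 1, 2 and 3. The middle contrast called none in any fit, and the median slope stayed below 0 in all, although it was 0.0040 within replicate 1 alone. No slope of the 7 called genes changed sign in any fit. Uqcrh was called in 10 of 25 other fits, Uqcrfs1 in 13, Cox6b1 in 17, Ndufaf4 in 22, Ndufc1 and Atp5c1 in 24, and Ndufb1 in 21 of 24. The cause of these differences was not tested.

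Arrays of the same replicate number deviated together in 55 of 63 pairs (r over 0.1, mean 0.33, lowest 0.037). In the 126 pairs of different numbers the mean r was -0.16, the lowest -0.51 and the highest 0.40. Of 21 arrays, 20 correlated best with their own number, a hint from the data and not from the design. The 3 arrays for each part and dim signals limit what can be detected, and near the filter of 13.3 a slope such as that of Ndufb1 is uncertain.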
